A study of Mus musculus with 5 samples.

Results

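Interferon-stimulated genes are described here across 5 RNA-seq libraries labelled as visceral adipose tissue of male C57BL/6 mice. The 9 genes were taken by name from the known interferon response, with earlier results of these data known: the signalling and transcription factor genes Stat2, Irf1, Irf7 and Irf9, the antiviral effectors Isg15, Ifit1 and Ifit3, and the guanylate-binding proteins Gbp2 and Gbp3. All 9 were found among the 78334 Ensembl genes of the count table, and all 9 were among the 29855 genes that passed the filter on low counts. Curcumin-treated diabetes (2 libraries) combined streptozotocin, a high-fat diet and curcumin, a polyphenol of turmeric given by gavage at 50 mg/kg each day for 28 days from 11 weeks of age. Untreated diabetes (2 libraries) had the same streptozotocin and diet with vehicle in place of curcumin. Streptozotocin, which kills pancreatic beta cells, was injected at 70 mg/kg in pups of 2 days, and the diet, with 60% of its energy as fat, began at 3 weeks of age and lasted 8 weeks. The control (1 library) came from standard chow with vehicle. The labels do not say whether libraries came from separate or pooled mice, so the p-values here reflect how far these libraries differ from each other, and part of that can be technical.

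Interferons are cytokines released on infection and inflammation. Type I interferon acts through Ifnar1 and Ifnar2 and the kinases Jak1 and Tyk2 on Stat2, which joins Irf9 within the factor ISGF3, and ISGF3 binds the interferon-stimulated response element (ISRE) in promoters. Interferon-gamma acts through Ifngr1, Ifngr2, Jak1 and Jak2 on promoters that hold the gamma-activated site (GAS). Adipocytes and the macrophages of fat both carry these receptors.

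Promoter sequence is shown because ISGF3 and the IRF factors are known to act through the ISRE. All 9 genes had a RefSeq promoter window on GRCm38.p6, reaching 250 bases before to 50 bases after a start site, and Irf1, Irf9 and Gbp3 had 2 windows each. The ISRE was searched on both strands as GAAA, any 2 bases and GAAA (TTTC, any 2 bases and TTTC on the other strand), and it was in a window of 6 of the 9 genes: Stat2, Isg15, Ifit1, Ifit3, Gbp2 and Gbp3. Of all 27025 genes with windows, 3.99% held it. The letters TTCNNNGAA, which read the same on both strands, were in Irf1 alone among the 9, against 9.55% of all genes. No match of either kind was found in the windows of Irf7 and Irf9, which says only that these letters are not there. The stretches below run 5′ to 3′ on the gene's strand, with the matches in capitals: GAS letters in Irf1 and ISRE letters in the others. In Isg15 and in Gbp3 neighbouring matches overlap.
Isg15 (chr4:156200860-156200926, minus strand): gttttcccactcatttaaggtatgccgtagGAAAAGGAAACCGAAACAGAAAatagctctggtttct
Ifit1 (chr19:34640755-34640828, plus strand): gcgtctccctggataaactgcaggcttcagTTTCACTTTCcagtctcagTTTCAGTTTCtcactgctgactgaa
Ifit3 (chr19:34583343-34583431, plus strand): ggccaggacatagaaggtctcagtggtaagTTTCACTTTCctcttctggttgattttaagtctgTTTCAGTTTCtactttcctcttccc
Gbp2 (chr3:142620574-142620628, plus strand): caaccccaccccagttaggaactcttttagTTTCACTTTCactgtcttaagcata
Gbp3 (chr3:142559969-142560029, plus strand): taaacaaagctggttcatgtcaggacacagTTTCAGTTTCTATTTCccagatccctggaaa
Stat2 (chr10:128270248-128270300, plus strand): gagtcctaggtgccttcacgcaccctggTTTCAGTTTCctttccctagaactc
Irf1 (chr11:53769894-53769947, plus strand): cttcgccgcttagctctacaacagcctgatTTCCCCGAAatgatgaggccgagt
The matches start between 222 bases (Stat2) and 39 bases (Gbp3) before the start site, and Isg15 holds 3 of them, Ifit1, Ifit3 and Gbp3 hold 2 each, and Gbp2 and Stat2 hold 1 each.

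The libraries of a group did not hold the same tissue, which bears on every value that follows. Total counts ran from 25378046 to 42422890. Adipocyte transcripts (10 markers, Adipoq and Lep among them) made up 4.27% of diabetes 2 and 0.0174% to 0.405% of each other library, and Pparg was at 0 counts in diabetes 1. The 10 markers of epididymal epithelium took 10.7% of curcumin-treated 2, 6.66% of diabetes 1 and 6.94% of control 1, against 0.601% of curcumin-treated 1 and 9 counts in all in diabetes 2. In curcumin-treated 1 a single marker, Crisp1, gave 165926 of the 167148 counts. Crisp1 was highest in that library (5965 CPM, against 334 CPM in curcumin-treated 2), where every other marker of the list was at 19.6 CPM or less. The 8 smooth muscle markers took 4.35% of curcumin-treated 1 and 0.0340% to 0.248% of the others. The 10 macrophage markers took 0.248% of diabetes 2, 0.0456% of curcumin-treated 1 and 0.0142% to 0.0309% of the other 3, with no macrophage marker at 0 in any library. In RNA from whole tissue, fewer cells of a type and less RNA per cell cannot be told apart. Wilson intervals given for single libraries cover counting error only.

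**Figure D1:**
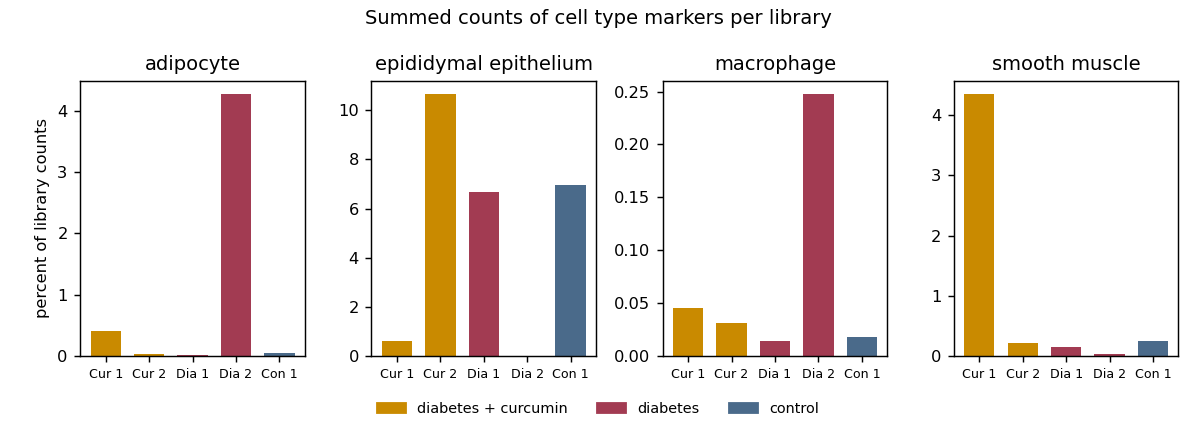
Percent of each library's counts (y axis) taken by the summed adipocyte, epididymal, macrophage and smooth muscle markers in the curcumin-treated (Cur), untreated diabetic (Dia) and control (Con) libraries. Diabetes 2 leads the adipocyte (4.27%) and macrophage (0.248%) markers, and curcumin-treated 1 the smooth muscle markers (4.35%).

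Levels below are CPM, a gene's counts scaled by its library's total to a common size. Per kilobase of exon (GENCODE M21 models on GRCm38, an older build than that of the counts), the mean level over the 5 libraries was 10.9 CPM per kb for Gbp2, 9.29 for Irf9, 8.66 for Ifit3, 7.50 for Irf1, 6.68 for Irf7, 6.63 for Stat2, 4.83 for Isg15, 2.41 for Gbp3 and 2.24 for Ifit1. The rank of Gbp2 rests on diabetes 2, where it stood at 35.5 CPM per kb, against 2.16 to 10.1 CPM per kb in the other libraries.

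Stat2, the type I subunit of ISGF3, was at 26.9 and 34.5 CPM in the curcumin-treated libraries and 42.2 and 28.4 CPM in the diabetic libraries, against 64.5 CPM in control 1 (95% Wilson interval 61.5 to 67.6). The control stood above all 4 libraries of the diabetes model, whose groups overlap. Irf9, the DNA-binding subunit of ISGF3, was at 40.9 and 53.4 CPM in the curcumin-treated libraries, 74.0 and 23.6 CPM in the diabetic libraries and 58.1 CPM in control 1. The diabetic libraries were the highest and the lowest of the 5, so that the other groups lay between them. The ratio of Irf9 to Stat2 counts was 1.52 and 1.55 in the curcumin-treated libraries, 1.75 and 0.831 in the diabetic ones and 0.902 in control 1.

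Irf1, an interferon-gamma-induced factor that acts on antigen presentation genes, was at 50.3 and 27.9 CPM in the curcumin-treated libraries and 16.4 and 24.0 CPM in the diabetic libraries, against 30.6 CPM in control 1. Irf7, the factor that amplifies type I interferon, was at 33.2 and 28.1 CPM with curcumin and 20.0 and 17.6 CPM in untreated diabetes, against 27.2 CPM in control 1. For both factors the curcumin-treated libraries lay above the diabetic ones, and the control lay above both diabetic libraries. Over the 5 libraries Irf7 varied least of the 9 genes, with a highest level 1.89 times its lowest.

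Isg15, a ubiquitin-like protein that is joined to other proteins during infection, was at 6.11 and 4.10 CPM in the curcumin-treated libraries and 2.48 and 1.65 CPM in the diabetic libraries, against 3.92 CPM in control 1. These levels rest on 170 and 174 counts with curcumin, 63 and 42 counts in untreated diabetes and 106 counts in the control. The Wilson interval of control 1 (3.24 to 4.74 CPM) held the value of curcumin-treated 2 and lay below the interval of curcumin-treated 1 (5.26 to 7.10 CPM). Ifit1, which binds viral RNA lacking a host cap, was at 9.49 and 6.81 CPM in the curcumin-treated libraries and 2.36 and 4.96 CPM in the diabetic libraries, against 6.07 CPM in control 1. As with Irf1 and Irf7, the 2 diabetic libraries were the lowest of the 5 for Isg15 and for Ifit1. Of all tested genes, 17.9% had both diabetic libraries below both curcumin-treated ones, and 34.5% had both below the control. The share that met both conditions was not counted. 

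Ifit3, of the same family as Ifit1, followed a different order. It was at 22.6 and 10.8 CPM in the curcumin-treated libraries, 10.2 and 19.7 CPM in the diabetic libraries and 12.3 CPM in control 1, so curcumin-treated 1 and diabetes 2 stood apart from the other 3 libraries and the groups overlap. Its reads are shared with a near-identical copy: 61.8% of the 31-base stretches of its transcripts are also in Ifit3b, so how counting split them is uncertain. Ifit3 and Ifit3b together were at 29.2 and 12.6 CPM with curcumin, 10.8 and 25.02 CPM in untreated diabetes and 14.5 CPM in the control, in the same order of libraries. The other 8 genes shared at most 12.8% of such stretches with any gene (Isg15).

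Gbp2 and Gbp3, interferon-induced GTPases that act on the vacuoles of intracellular pathogens, were highest in diabetes 2. Gbp2 was at 25.5 and 6.46 CPM in the curcumin-treated libraries and 10.2 and 89.3 CPM in the diabetic libraries, against 5.44 CPM in control 1. Its highest level was 16.4 times its lowest, where the median of this ratio over all tested genes was 13.1. That median is raised by 10577 of the 29855 tested genes that were at 0 in a library, so it is no close measure for Gbp2. Gbp3 was at 6.58 and 5.14 CPM in the curcumin-treated libraries, 3.97 and 18.1 CPM in the diabetic ones and 5.55 CPM in control 1. Both diabetic libraries lay above the control for Gbp2, but they lay on opposite sides of it for Gbp3. Per count of the macrophage markers, Gbp2 had 0.0559 and 0.0209 counts with curcumin, 0.0718 and 0.0361 in untreated diabetes and 0.0308 in control 1. The scale was formed for Gbp2 only, and the part of macrophages or of other cells in its level was not tested.

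**Figure D2:**
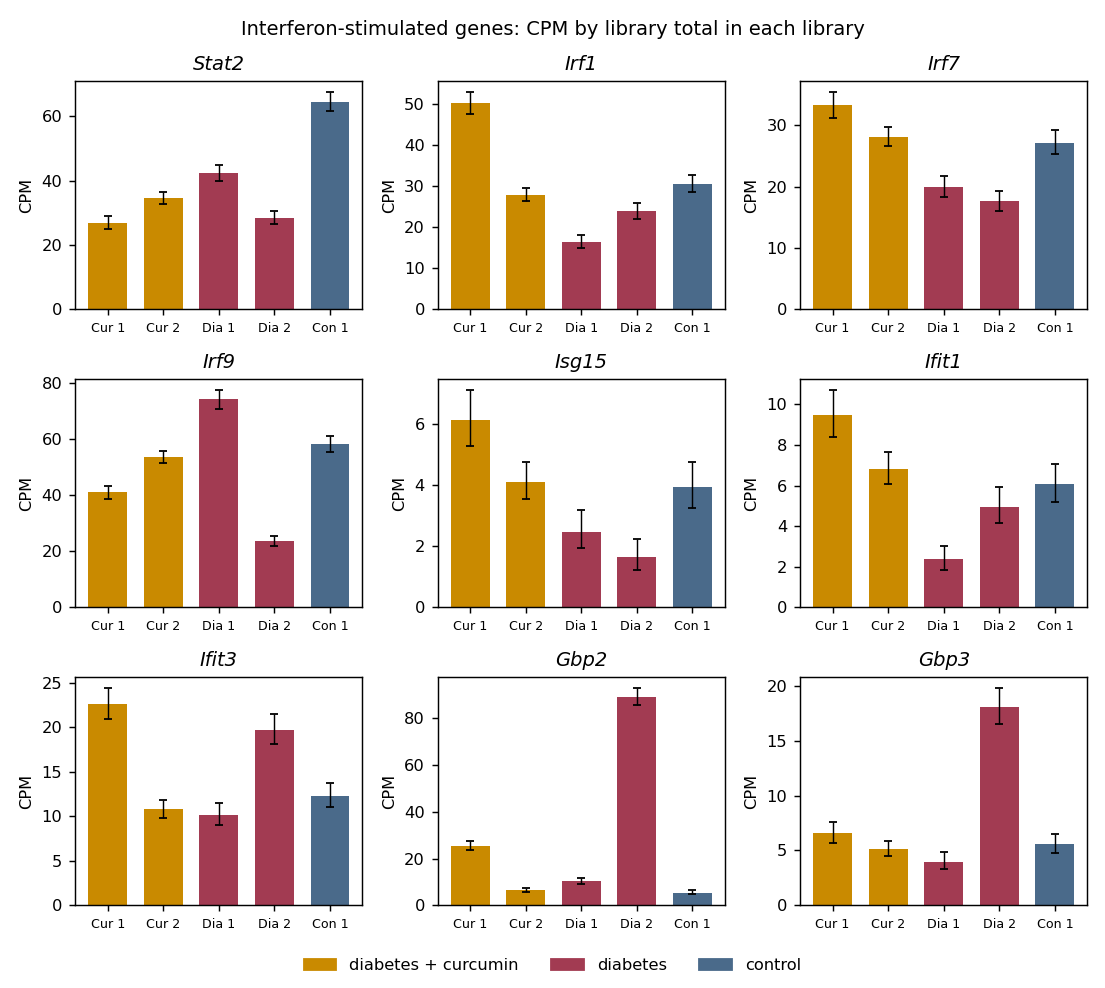
CPM by library total (y axis, from 0, with a scale of its own per gene) of the 9 genes in each curcumin-treated (Cur), diabetic (Dia) and control (Con) library; error bars are 95% Wilson intervals of the single library. Irf1, Irf7, Isg15 and Ifit1 are lowest in the 2 diabetic libraries, an order whose share over all genes was not counted. Gbp2 (89.3 CPM) and Gbp3 (18.1 CPM) stand highest in diabetes 2.

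Curcumin-treated against untreated diabetes asked what the treatment changes. In 4 of the 9 genes, Irf1, Irf7, Isg15 and Ifit1, both curcumin-treated libraries lay above both diabetic ones, where 17.9% of all tested genes did so. None of the 9 lay below, where 9.72% of all tested genes did. None passed edgeR's quasi-likelihood test. Isg15 averaged 5.11 ± 1.42 CPM with curcumin and 2.07 ± 0.580 CPM in untreated diabetes (SD, n = 2 each), a fitted log2 fold change of 1.30 (SE 0.83, edgeR adjusted p = 0.852). Ifit1 averaged 8.15 ± 1.89 CPM against 3.66 ± 1.84 CPM (log2 fold change 1.09, SE 0.81), Irf1 39.1 ± 15.8 CPM against 20.2 ± 5.36 CPM (0.90, SE 0.53) and Irf7 30.7 ± 3.60 CPM against 18.8 ± 1.66 CPM (0.70, SE 0.45), each with an edgeR adjusted p of 0.852. Without diabetes 2 the log2 fold change of Ifit1 was 1.87, and without diabetes 1 it was 0.60; the same values were 1.32 and 0.57 for Irf1.

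The other 5 genes overlapped between these groups. The log2 fold change was 0.08 for Ifit3 (SE 0.67), 0.01 for Irf9 (SE 0.63) and −0.18 for Stat2 (SE 0.47). It was −1.79 for Gbp2 (SE 1.19) and −1.0 for Gbp3 (SE 0.95), and without diabetes 2 both signs turned, at 0.68 for Gbp2 and 0.64 for Gbp3. The median over the 9 genes was 0.08 and over all 29855 tested genes 0.05. Over all genes edgeR called 0 (0% of those tested), with 700 at an unadjusted p under 0.05, none of them among the 9; limma-voom called 0 and DESeq2 93, again none of the 9, whose adjusted p was 0.528 or more under every alternative tried.

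Among curcumin-treated 2, diabetes 1 and control 1, the 3 libraries rich in epididymal transcripts, each group is represented once and no test can be made. Ifit1 was 2.89 times as high in curcumin-treated 2 as in diabetes 1, Irf1 1.70 times, Isg15 1.66 times and Irf7 1.41 times. The direction of these 4 was fixed by picking genes whose curcumin-treated libraries lay above the diabetic ones. Of the other 5, Gbp3 was at 1.29 times the level of diabetes 1, Ifit3 at 1.06 times, Stat2 at 0.817 times, Irf9 at 0.721 times and Gbp2 at 0.635 times. Against control 1, curcumin-treated 2 ran from 0.535 times (Stat2) to 1.19 times (Gbp2) over the 9 genes.

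Diabetes against control asked what the disease model changes, with a control of 1 library that has no spread of its own. In 5 of the 9 genes, Stat2, Irf1, Irf7, Isg15 and Ifit1, both diabetic libraries lay below the control, where 34.5% of all tested genes did. Gbp2 was the only 1 of the 9 with both above it, where 17.3% of all tested genes were. Stat2 averaged 35.3 ± 9.78 CPM in diabetes (SD, n = 2) and was at 64.5 CPM in the control (log2 fold change −0.74, SE 0.56), and Isg15 averaged 2.07 ± 0.580 CPM against 3.92 CPM (−0.80, SE 0.98). Gbp2 averaged 49.7 ± 55.9 CPM against 5.44 CPM (3.42, SE 1.71), and its log2 fold change was 0.94 without diabetes 2 and 4.27 without diabetes 1. 

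The log2 fold change with diabetes was −0.54 for Ifit1 (SE 0.96), −0.43 for Irf1 (SE 0.63), −0.39 for Irf7 (SE 0.54) and −0.16 for Irf9 (SE 0.76), and it was 0.46 for Ifit3 (SE 0.84) and 1.20 for Gbp3 (SE 1.21). Each of the 9 had an edgeR adjusted p of 1. The sign of Irf9, Ifit3 and Gbp3 turned without diabetes 2, at 0.39, −0.23 and −0.44. Without diabetes 2 the value was −1.32 for Ifit1 and −0.86 for Irf1, and without diabetes 1 it was −0.05 for Ifit1 and −0.12 for Irf1. Over all genes edgeR called 0 (0% of those tested), with 441 at an unadjusted p under 0.05; limma-voom called 0 and DESeq2 55, none of them among the 9. The median was −0.39 over the 9 genes and 0.07 over all tested genes.

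Curcumin-treated diabetes against control shares libraries with both comparisons above, so its values are no independent support for either. Irf7, Isg15, Ifit1 and Gbp2 lay above the control in both curcumin-treated libraries, where 24.6% of all tested genes did, and Stat2 and Irf9 lay below in both, where 34.0% did. With TMM scaling, Irf1, Ifit3 and Gbp3 also lay above and Irf9 no longer lay below. Stat2 had the smallest p of the 9, at 30.7 ± 5.41 CPM with curcumin (SD, n = 2) against 64.5 CPM in the control (log2 fold change −0.92, SE 0.56, edgeR adjusted p = 1). The other values were 1.63 for Gbp2 (SE 1.54), 0.55 for Ifit1 (SE 1.00), 0.54 for Ifit3 (SE 0.84), 0.50 for Isg15 (SE 1.02), 0.46 for Irf1 (SE 0.66), 0.31 for Irf7 (SE 0.55), 0.21 for Gbp3 (SE 1.16) and −0.15 for Irf9 (SE 0.76). Without curcumin-treated 1 the value was 0.49 for Gbp2, 0.05 for Ifit3 and 0.10 for Irf1. The median was 0.46 over the 9 genes against 0.17 over all tested genes, which was 0.03 over all genes when scaled by library totals. EdgeR called 0 of all genes (0%), with 113 at an unadjusted p under 0.05; limma-voom called 0 and DESeq2 71, none among the 9.

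**Figure D3:**
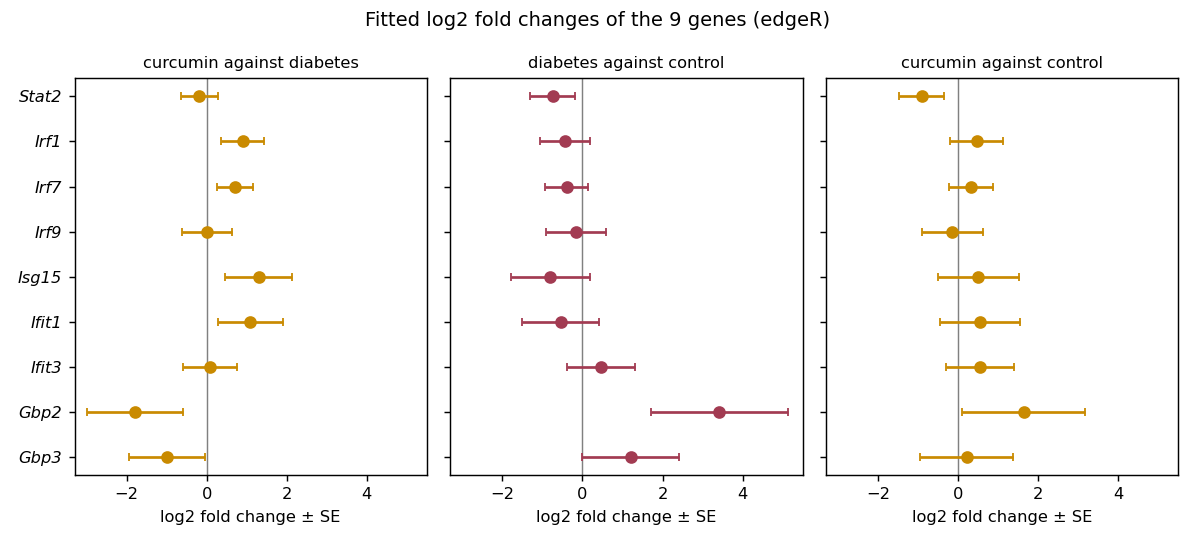
Fitted log2 fold change (x axis; points) with its standard error (bars) of the 9 genes in the 3 comparisons. With curcumin against diabetes Isg15 stands highest (1.30) and Gbp2 lowest (−1.79), and with diabetes against control Gbp2 stands highest (3.42); no value passed the test.

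The 7 ligand genes looked up were barely detected. Of the interferon-alpha genes only Ifna4 was looked up, so the others are not described here. Ifna4, Ifne and Ifnk were at 0 counts in all 5 libraries, which allows at most 0.0707 CPM in the deepest library and 0.118 CPM in the shallowest. Ifnb1 and Ifnl3 had 4 counts each and Ifnl2 had 1 count, all in curcumin-treated 1. Ifng had 4 and 8 counts in the curcumin-treated libraries, 0 and 6 counts in the diabetic ones and 0 in control 1. None of the 7 ligand genes passed the filter. Markers of T and natural killer cells, the main sources of interferon-gamma, made up 0.00228% and 0.00116% of the curcumin-treated libraries and 0.000790% and 0.00206% of the diabetic ones, against 0.000433% of control 1. Of the 6 listed markers of plasmacytoid dendritic cells, a main source of type I interferon, Tcf4, which many other cells express, gave nearly all the counts (1597 of 1722 in curcumin-treated 1), so the sum does not describe these cells. Siglech, another of these markers, was at 1.19 and 1.58 CPM with curcumin and 1.22 and 0.236 CPM in untreated diabetes, against 1.70 CPM in control 1. These levels rest on 6 to 67 counts. Other markers of the list took other orders: Ccr9 was highest in diabetes 1 (1.53 CPM), Cox6a2 in diabetes 2 (3.39 CPM) and Spib in curcumin-treated 1 (2.41 CPM). In diabetes 1, 3 of the 6 markers were at 0.

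The remaining 79 genes of the pathway, in 8 lists, were tested as well, and 0 passed edgeR's test in any of the 3 comparisons in either direction. With curcumin against diabetes 24 had a positive and 55 a negative log2 fold change (median −0.37, against 0.05 over all genes). Of the 79, 1 had an unadjusted p under 0.05. Both curcumin-treated libraries lay above both diabetic ones in 9 of the 79, where 17.9% of all tested genes did so. They lay below in 6 of the 79, where 9.72% of all tested genes did. With diabetes against control 58 were positive and 21 negative (median 0.67, against 0.07), and with curcumin against control 53 were positive and 26 negative (median 0.31, against 0.17). The 2 diabetic libraries differed in direction: diabetes 2 was above the control in 62 of the 79 and diabetes 1 below it in 58. Likewise the curcumin mean was below diabetes 2 in 62 of the 79 and above diabetes 1 in 62. Diabetes 2 held the highest level of 47 of the 79 genes (59.5%), where it held the highest of 22.0% of all tested genes, and diabetes 1 the lowest of 38 (48.1%, against 27.6% of all). Of the 9 genes described above, diabetes 2 held the highest level of 2 and curcumin-treated 1 of 5. Over all tested genes these shares were 22.0% for diabetes 2 and 21.2% for curcumin-treated 1.

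Receptors and kinases had 8 of 9 negative values with curcumin (median −0.61). Ifngr1, the ligand-binding chain for interferon-gamma, was at 80.8 and 51.6 CPM with curcumin and 67.7 and 343 CPM in untreated diabetes, against 73.2 CPM in control 1 (log2 fold change with curcumin −1.73, SE 0.90, edgeR adjusted p = 0.852). Jak1, the kinase of both pathways, was at −0.61 (SE 0.61) with curcumin. Of the 5 other transcription factors, 1 had both curcumin-treated libraries above both diabetic ones, where 17.9% of all tested genes did so. It was Irf3, which acts downstream of the cytosolic sensors, at 83.7 and 64.1 CPM against 30.5 and 53.5 CPM. The log2 fold change of Irf3 was 0.77 (SE 0.52). Irf5, a factor of macrophages, was at 17.8 and 4.13 CPM with curcumin and 3.93 and 63.6 CPM in untreated diabetes, against 2.96 CPM in control 1 (log2 fold change with diabetes against control 3.75, SE 2.04).

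All 9 nucleic acid sensors had negative values with curcumin (median −0.57) and 7 of 9 positive values with diabetes (median 0.86). Both curcumin-treated libraries lay below both diabetic ones in 1 of the 9, where 9.72% of all tested genes did so. The curcumin mean was above diabetes 1 in 6 of the 9. Tlr7, an endosomal RNA sensor, was at 2.77 and 1.06 CPM with curcumin and 1.18 and 24.3 CPM in untreated diabetes, against 1.07 CPM in control 1. Rigi, the cytosolic RNA sensor, stood at −0.43 (SE 0.45) with curcumin and Mavs, its adaptor, at −0.04 (SE 0.69). Of 24 other antiviral effectors 8 were positive and 16 negative with curcumin (median −0.15). Ifi27 was at 155 and 14.9 CPM with curcumin and 10.7 and 498 CPM in untreated diabetes, against 21.3 CPM in control 1. Both curcumin-treated libraries lay above both diabetic ones in 2 of the 24, where 17.9% of all tested genes did so. Ifitm1, a membrane protein that blocks viral entry, was among these 2. It was at 8.99 and 7.87 CPM against 4.56 and 2.88 CPM, with 14.7 CPM in control 1. Its log2 fold change was 1.19 with curcumin (SE 0.66) and −1.86 with diabetes (SE 0.76). Ifitm3 of the same family was at 0.31 (SE 0.62) with curcumin.

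Of 4 enzymes that attach or remove Isg15, 2 were positive and 2 negative with curcumin (median −0.20). Usp18, which removes it, was the only 1 with both curcumin-treated libraries above both diabetic ones, at 4.85 and 6.11 CPM against 3.69 and 3.94 CPM. Herc6, a ligase for it in mice, was the only 1 with both below, at 3.20 and 4.46 CPM against 6.17 and 7.45 CPM (log2 fold change −0.83, SE 0.76). Of all tested genes, 17.9% lay above in this way and 9.72% below. Uba7, the activating enzyme, was at 0.05 (SE 0.64) and Ube2l6, the conjugating enzyme, at −0.45 (SE 0.70). Usp18 was named after its values were seen.

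Of 10 other interferon-induced GTPases, 6 were highest in diabetes 2 and 4 in curcumin-treated 1, where 22.0% and 21.2% of all tested genes were. Gbp6 was at 6.22 and 3.09 CPM with curcumin and 1.93 and 33.7 CPM in untreated diabetes, against 1.70 CPM in control 1. Igtp, an immunity-related GTPase, was at 21.5 and 20.5 CPM with curcumin and 12.9 and 13.1 CPM in untreated diabetes, against 16.9 CPM in control 1 (log2 fold change with curcumin 0.68, SE 0.50, edgeR adjusted p = 0.852), and Irgm1 of the same family was at 0.42 (SE 0.58). Gbp7, which shares 5.52% of the 31-base stretches of Gbp3, was at 7.28 ± 2.16 CPM with curcumin and 10.3 ± 9.09 CPM in untreated diabetes (SD, n = 2 each), and the log2 fold change with curcumin was −0.33 for Gbp4 (SE 1.47), 0.07 for Gbp5 (SE 1.46), −0.10 for Gbp8 (SE 1.01) and −1.35 for Gbp9 (SE 0.97).

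All 14 interferon-gamma and antigen presentation genes had positive values with diabetes against control (median 1.27). Diabetes 2 held the highest level of 10 of the 14, where it held the highest of 22.0% of all tested genes. Diabetes 1, in contrast, lay below the control in 10 of the 14. Both diabetic libraries lay above the control in 3 of the 14, where 17.3% of all tested genes did so. Cxcl9, a chemokine induced by interferon-gamma, had 152 and 52 counts with curcumin and 23 and 654 counts in untreated diabetes, against 6 counts in control 1. H2-K1, a class I molecule, was at 587 and 578 CPM with curcumin and 788 and 1503 CPM in untreated diabetes, against 674 CPM in control 1 (log2 fold change with curcumin −1.02, SE 0.72). B2m, the light chain of class I, stood at −0.70 (SE 0.98). Among 4 negative regulators, Socs1, which blocks the Jak kinases, was at 20.4 and 2.05 CPM with curcumin and 0.943 and 1.10 CPM in untreated diabetes, against 2.92 CPM in control 1 (log2 fold change with curcumin 3.35, SE 1.24, edgeR adjusted p = 0.852), while the phosphatases Ptpn2 and Ptpn6 were at 0.26 (SE 0.52) and −0.15 (SE 0.53).

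Diabetes 2, which held the highest level of most of these genes, was also the library richest in macrophage, adipocyte and endothelial markers (6 endothelial markers at 0.0263% of its counts, against 0.00273% of diabetes 1), and the part of those cells in the differences was not tested. Counts of 0 also bear on the diabetic libraries. In diabetes 1, 4 of 76 interferon genes with at least 30 counts in every other library were at 0 (Ddx60, Mx2, Oasl1 and Socs3), against 0.979% of all genes so expressed. In diabetes 2, 0 of 68 were at 0, against 1.67% of all genes so expressed there.

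**Figure D4:**
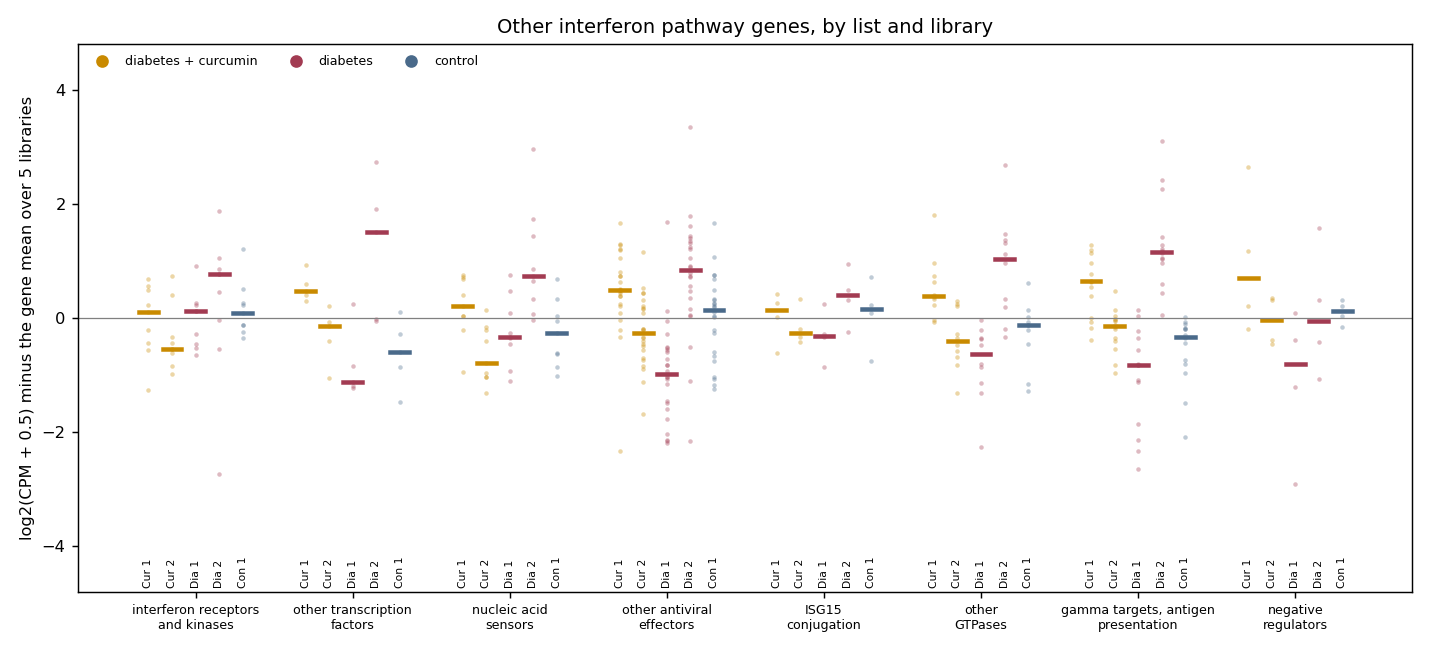
Level of each pathway gene (points; y axis, log2 of CPM plus 0.5, minus the gene's mean over the 5 libraries) by list (x axis) in the curcumin-treated (Cur), diabetic (Dia) and control (Con) libraries; bars are list medians. The median of diabetes 2 is the highest of the 5 libraries in 7 of the 8 lists, all but the negative regulators.

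Genes outside the pathway were compared with the median profile of the 9 over the 5 libraries, which was 0.58 and 0.13 with curcumin, −0.56 and −0.08 in untreated diabetes and 0.03 in control 1 (TMM-scaled log2 CPM minus the gene's mean). Of 10588 named genes whose mean log2 CPM reached 3, the nearest were Lrwd1, Med9, Fam193b, Mfsd10 and Lamb2, at Euclidean distances of 0.050 to 0.154, against a median of 1.34 over all. Of the 9 themselves Irf1 (0.34) and Irf7 (0.44) lay nearest this profile and Gbp2 (3.43) farthest, so that the median describes only some of them.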

How the data were processed

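The authors deposited whole-number read counts per Ensembl gene, not normalised, for 5 poly-A libraries of a stranded kit, per the labels' protocols. Per the submitters' processing notes, FastQC and featureCounts were used with GRCm39; for the aligner, annotation release and strand setting nothing is given in the sources used here. Since strand may not have been used in counting, reads of antisense genes cannot be assigned with certainty: Phrf1 overlaps 1.19% of Irf7's exon bases and Gm17334 3.40% of Irf1's, on the opposite strand. Symbols were matched by gene ID for 51486 of 78334 genes.

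Depth was 25378046 to 42422890 counts per library, and a count of 0 allows 3 counts. Genes were kept by filterByExpr (29855), scaled by TMM and fitted together, with a mean per group, in edgeR 4.0.16 (R 4.3.3; quasi-likelihood, robust, two-sided, Benjamini-Hochberg, threshold 0.05), with 2 residual degrees of freedom. The lone control is taken to vary as the other groups do. The biological coefficient of variation, a common value over all tested genes, was 1.07, and SE is |log2 fold change| divided by √F. CPM uses library totals, except where TMM scaling is named. On simulated counts the test found planted changes where replicates varied little. It found none where they varied about as much as the common value of 1.07, so 0 calls do not show that genes did not differ. That common value does not describe the spread of each gene. The simulation therefore does not give the power for the interferon-stimulated genes described above. Alternatives were RLE and library-total scaling, other filters (at least 1 CPM in 2 libraries among them), DESeq2 1.42.0, limma-voom 3.58.1, no robust moderation, removal of other-tissue and mitochondrial genes, a replicate block, the 4 libraries without the control, and leaving out each replicated library.

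The 9 genes and the lists were chosen with earlier results of these data known. From each list the text names the 2 genes with the highest mean CPM, those with the smallest p in the comparisons of curcumin with diabetes and diabetes with control, all ligands, Ifit3b and the other Gbp genes; 1 gene so chosen is not reported here. Promoters are RefSeq's on GRCm38.p6; the counts were made on GRCm39, and no coordinates were converted.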

Additional observations from a re-analysis of the deposited data

How the results depend on the processing

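None of the 9 genes passed the threshold under any alternative tried, in any of the 3 comparisons. The number of genes called stayed at 0 except with DESeq2, which called 93 with curcumin against diabetes, 55 with diabetes against control and 71 with curcumin against control; the cause was not tested. With curcumin against diabetes, the sign of Irf9 (0.01) turned to −0.05 with RLE scaling, library-total scaling and DESeq2, −0.06 with the CPM filter and −0.02 without the control. Leaving out each replicated library gave −0.54 to 0.91 for Irf9, −0.51 to 0.08 for Stat2, −0.41 to 0.77 for Ifit3, −2.93 to 0.68 for Gbp2 and −1.74 to 0.64 for Gbp3. With diabetes against control the ranges that cross 0 were −1.06 to 0.39 for Irf9, −0.23 to 0.92 for Ifit3 and −0.44 to 1.94 for Gbp3, and with curcumin against control −0.49 to 0.12 for Irf9. Isg15 was at least 1.10, and Irf7 ran from 0.68 to 0.71, Irf1 from 0.54 to 1.32 and Ifit1 from 0.60 to 1.87 with curcumin against diabetes.

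Replicate numbers 1 and 2 do not pair the libraries by any label, and same-numbered libraries deviated from their group means with a correlation of −0.41 across 29855 genes, which are not independent. With the replicate block 0 genes were called in each comparison, and the sign turned with curcumin against control for Irf9 (0.12) and Gbp3 (−0.22). With the numbers crossed, an alternative chosen after seeing the data, 0 genes were called in each. Depth limits Isg15 most, with 42 counts in diabetes 2, and the design, with 2 libraries in each diabetic group, limits more than depth. The standard errors of the 9 log2 fold changes with curcumin against diabetes ran from 0.45 to 1.19. The biological coefficient of variation of 1.07 is a common value over all tested genes and does not describe the spread of these 9.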

Other observations

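Isg20 and Ifngr2 were higher in each of the 3 libraries rich in epididymal markers than in the other 2, whatever the group. The share of all tested genes in that order was not counted, so it cannot be called particular to Isg20 and Ifngr2. They and Ifnlr1 were chosen after their values were seen. Isg20, an RNA exonuclease, was at 10.6 and 125 CPM in the curcumin-treated libraries and 178 and 12.0 CPM in the diabetic libraries, against 177 CPM in control 1. Ifngr2, the signalling chain of the interferon-gamma receptor, was at 33.2 and 106 CPM with curcumin and 151 and 54.9 CPM in untreated diabetes, against 114 CPM in control 1, an order unlike that of its partner Ifngr1. Ifnlr1, the receptor chain for interferon-lambda that epithelia carry, was at 8.23 and 9.43 CPM with curcumin and 6.44 and 0.394 CPM in untreated diabetes, against 13.2 CPM in control 1. Diabetes 2, where epididymal markers held 9 counts in all, had the lowest level of Ifnlr1, from 10 counts. The part of epididymal cells in these levels was not tested.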
